A study of Mus musculus with 6 samples.

Results

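Serine synthesis and folate one-carbon metabolism were followed through 10 enzyme genes, chosen by symbol from the 24421 genes of a deposited read-count table of mouse prostate. Phgdh, Psat1 and Psph encode the 3 enzymes of serine synthesis. Shmt1 and Mthfd1 formed the cytosolic folate arm, and Shmt2, Mthfd2, Mthfd1l, Mthfd2l and Aldh1l2 the mitochondrial arm. All 10 were in the table and all 10 passed the filter on low counts. The p62FSP1KO group held 3 libraries from C57BL/6 mice with floxed p62 alleles and a Cre named for FSP1, and the labels place the loss of p62 in the stroma. The p62f/f group held 3 libraries from mice with the same floxed alleles and no Cre named, which the labels call wild type. All mice were 52 weeks old, and whole prostates were frozen before polyadenylated RNA was sequenced. The series title asks how p62, the autophagy adaptor encoded by Sqstm1, acts on the stress-response factor ATF4 and on stromal metabolism. Whether the 3 libraries of a group are from 3 different animals is not stated in the labels. The sample titles carry a different number for each library, with no meaning given. The p-values therefore refer to the spread among these libraries, which may not be that among animals. Within a group that spread had a chi-square per gene of 48.3 to 396 between libraries, more than counting error alone gives.

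Cells make serine from the glycolytic intermediate 3-phosphoglycerate, which PHGDH oxidises, PSAT1 transaminates and PSPH dephosphorylates. Serine hydroxymethyltransferase (SHMT) then moves a carbon from serine to tetrahydrofolate, leaving glycine. The step exists in duplicate, with SHMT2 and the MTHFD2, MTHFD2L and MTHFD1L enzymes releasing formate from mitochondria and SHMT1 and the trifunctional MTHFD1 working in the cytosol. The carbon units feed purine, thymidylate and methionine synthesis. PHGDH, PSAT1, PSPH, SHMT2 and MTHFD2 genes are textbook targets of ATF4 in cultured cells.

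Total counts were 14761703 to 26910053 in the p62FSP1KO libraries and 12826463 to 20011908 in the p62f/f libraries. The prostate marker Pbsn, which encodes probasin, was present in all libraries, and 6 of 6 seminal vesicle genes fell below the count filter. The p62f/f library 3 stood apart from the other 2 of its group: its Spearman correlation across genes was 0.938 to 0.942 with them, against 0.985 between them. Its summed level of 5 adipocyte genes was 972 CPM (counts in a library of 1000000, scaled by TMM factors), where the other 5 libraries had 4.35 to 40.2 CPM. Its 4 secretory genes of other lobes summed to 1043 CPM, against 169574 to 322313 CPM elsewhere. In the p62FSP1KO group library 1 was the one less like the others. Its Spearman correlation was 0.953 to 0.958 with them, against 0.986 between libraries 2 and 3. The p62f/f library 3 and p62FSP1KO library 1 were therefore also left out together in an alternative fit. The ventral-type secretory genes Sbp, Sbpl and Spink1 summed to 3.03 to 91.7 CPM in p62FSP1KO libraries and 49129 to 164610 CPM in p62f/f libraries. Lobe content, cell mixture and genotype therefore cannot be told apart for any gene whose level follows these marker sums. In whole tissue, fewer cells of a type and less RNA per cell cannot be told apart either. Sqstm1 itself averaged 463 ± 76.8 CPM in p62FSP1KO and 355 ± 57.4 CPM in p62f/f libraries (SD, n = 3 each), so the RNA did not check a deletion that is limited to some cells.

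Promoter windows are shown for the 3 genes that passed the test and for Mthfd2, whose library-to-library pattern was close to that of Psat1. Each runs from 250 bases before to 50 after the gene start of RefSeq on GRCm38.p6, and capitals mark CCAAT boxes and a cyclic AMP response element core (TGACGT), on either strand. The windows are chr19:15925010-15925309 for Psat1, chr5:129787204-129787503 for Psph, chr6:83317555-83317854 for Mthfd2 and chr11:60811216-60811515 for Shmt1, all on the minus strand.
Psat1: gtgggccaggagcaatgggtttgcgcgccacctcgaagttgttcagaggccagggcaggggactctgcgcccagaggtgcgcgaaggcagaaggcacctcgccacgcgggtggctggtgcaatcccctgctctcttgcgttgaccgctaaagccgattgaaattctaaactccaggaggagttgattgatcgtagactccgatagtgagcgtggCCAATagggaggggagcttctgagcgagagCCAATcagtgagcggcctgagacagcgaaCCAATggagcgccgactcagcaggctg
Psph: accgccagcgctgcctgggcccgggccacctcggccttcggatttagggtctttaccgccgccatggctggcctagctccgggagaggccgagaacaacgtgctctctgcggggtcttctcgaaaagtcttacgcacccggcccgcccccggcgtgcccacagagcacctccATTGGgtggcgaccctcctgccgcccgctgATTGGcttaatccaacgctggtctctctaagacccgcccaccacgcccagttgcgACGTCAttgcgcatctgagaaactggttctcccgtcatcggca
Mthfd2: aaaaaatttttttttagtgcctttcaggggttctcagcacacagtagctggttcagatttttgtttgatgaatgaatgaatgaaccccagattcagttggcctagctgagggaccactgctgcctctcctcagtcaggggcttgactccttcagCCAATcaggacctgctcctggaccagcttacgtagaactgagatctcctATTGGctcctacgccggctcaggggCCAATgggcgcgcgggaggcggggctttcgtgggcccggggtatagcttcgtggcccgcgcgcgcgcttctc
Shmt1: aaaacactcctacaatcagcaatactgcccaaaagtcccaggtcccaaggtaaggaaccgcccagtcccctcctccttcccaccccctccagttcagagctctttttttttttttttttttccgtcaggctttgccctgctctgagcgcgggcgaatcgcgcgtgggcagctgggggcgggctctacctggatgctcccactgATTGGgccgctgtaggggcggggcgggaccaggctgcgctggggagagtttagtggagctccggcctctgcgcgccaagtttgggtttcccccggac
A RefSeq window was matched by symbol for 9 of the 10 genes, all but Aldh1l2. Psat1 has 2 starts in the table, the first of which is shown. The window of the second (chr19:15924573-15924872) held none of the motifs. Both windows lie inside the GENCODE locus of Psat1, whose annotated span reaches further upstream. The Mthfd2 and Shmt1 windows also lie inside their loci, which reach upstream to 83325908 and 60811718. CCAAT, the letters bound by NF-Y, occurred 3 times in the Psat1 window shown and in the Mthfd2 window, and 2 times in those of Psph and Phgdh. It occurred 1 time in Shmt1 and Mthfd1 and in none of the Shmt2, Mthfd1l and Mthfd2l windows. Of 32851 windows of this length in the table, 37.4% held at least 1 CCAAT and 11.7% at least 2. TGACGT, searched on both strands, was found at bases 258 to 263 of the Psph window and 238 to 243 of the Mthfd1l window, and 7.51% of all windows held it. TGATGNAA, the core of the amino acid response element read by ATF4 and C/EBP factors, was in no window of these genes, and in 3.97% of all windows. The motifs did not overlap one another in these windows. A match is a description of the letters and not evidence that a factor binds there.

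In p62FSP1KO prostates 2 serine synthesis genes rose, Psat1 by 2.89-fold and Psph by 2.69-fold, and the cytosolic enzyme gene Shmt1 fell, its level being 1.84-fold higher in p62f/f. Phgdh and Mthfd1 lay within the spread of the libraries. Shmt2, Mthfd2, Mthfd1l and Aldh1l2, of the mitochondrial arm, were 1.87-fold to 2.27-fold higher without passing the threshold. Over all 13762 genes tested by edgeR's quasi-likelihood test, 5.07% passed an adjusted p of 0.05. Of all tested genes 0.414% passed as higher and 4.66% as lower, and of the 10 genes 2 passed as higher and 1 as lower. The 10 genes were chosen with earlier results of these data known, so these shares are a description. The median log2 fold change of the 10 was 0.91, and that of all tested genes was 0.03. The 3 and 3 values did not overlap for 5 of the 10 genes in the higher direction and 2 in the lower, where 14.1% and 18.3% of all tested genes separated in these directions.

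**Figure D1:**
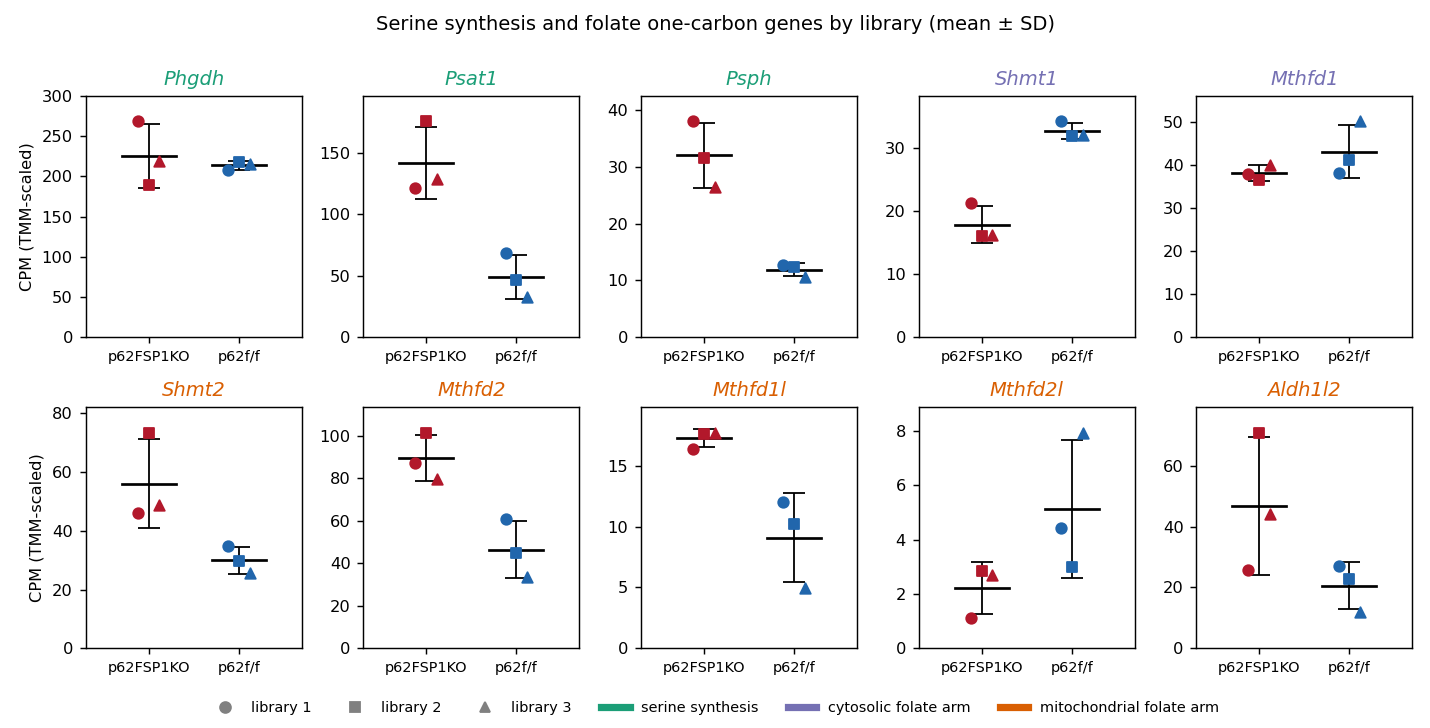
Level of the 10 genes in each library, in CPM scaled by TMM factors on axes that start at 0, with p62FSP1KO left of p62f/f; points are libraries, bars mean ± SD (n = 3 each). Psat1 and Psph sit wholly above p62f/f in p62FSP1KO libraries, Shmt1 wholly below, and Phgdh overlaps.

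Phgdh, the entry enzyme of serine synthesis (chromosome 3, 98313170 to 98339990, minus strand, GRCm38), had 268, 189 and 219 CPM in p62FSP1KO libraries 1, 2 and 3, against 208, 218 and 216 CPM in p62f/f libraries 1, 2 and 3. The p62f/f values lay inside the range of the p62FSP1KO values. In edgeR the log2 fold change was 0.08 ± 0.19 (SE), with a 95% interval of -0.37 to 0.52 (adjusted p = 0.840).

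Psat1, the phosphoserine aminotransferase gene (chromosome 19, 15904678 to 15947337, minus strand), had 121, 176 and 129 CPM in p62FSP1KO libraries 1, 2 and 3, against 68.2, 46.7 and 32.5 CPM in p62f/f libraries 1, 2 and 3. The lowest p62FSP1KO library was above the highest p62f/f library, and the p62f/f values spread over a 2-fold range. Psat1 rose by 1.53 ± 0.30 on the log2 scale (SE; adjusted p = 0.0278, edgeR). The call was lost in 4 of 6 edgeR fits that left out a library, with adjusted p-values of 0.104 without p62f/f 2 and 0.0577, 0.107 and 0.0798 without p62FSP1KO 1, 2 and 3.

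Psph, the phosphatase gene that completes the pathway (chromosome 5, 129765558 to 129787449, minus strand), had 38.0, 31.6 and 26.4 CPM in p62FSP1KO libraries 1, 2 and 3, against 12.7, 12.5 and 10.5 CPM in p62f/f libraries 1, 2 and 3. Every p62FSP1KO value was more than 2-fold above the highest p62f/f value. Psph rose by 1.43 ± 0.21 on the log2 scale (SE; adjusted p = 0.00981, edgeR) and ranked 240 of 13762 genes by p. Without p62FSP1KO 2 the adjusted p from edgeR was 0.0521. Of the Psph exons, 10.4% of the bases overlap exons of Cct6a on the opposite strand, and the strand setting of the counting is not given in the sources used here. Cct6a, a chaperonin subunit gene, had 242, 149 and 163 CPM in p62FSP1KO libraries and 130, 132 and 133 CPM in p62f/f libraries, and its part in the Psph counts was not tested.

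Within each library the Psat1 count divided by the Phgdh count was 0.452, 0.929 and 0.590 in p62FSP1KO libraries 1, 2 and 3, against 0.328, 0.214 and 0.151 in p62f/f libraries 1, 2 and 3. This ratio does not depend on how libraries are scaled against each other. All p62FSP1KO ratios were above all p62f/f ratios, and the difference was 1.52 on the log2 scale (SD 0.53 and 0.56). An exact two-sided permutation test gave p = 0.1, the smallest value that 3 libraries against 3 allow, and 0.1 after adjustment over the 3 gene ratios tested.

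Shmt1, the cytosolic serine hydroxymethyltransferase gene (chromosome 11, 60788104 to 60811718, minus strand), had 21.3, 16.0 and 16.3 CPM in p62FSP1KO libraries 1, 2 and 3, against 34.3, 31.9 and 32.1 CPM in p62f/f libraries 1, 2 and 3. The groups did not overlap, and the p62f/f libraries were close to one another, library 3 included. Shmt1 fell, with a log2 fold change of -0.88 ± 0.19 (SE; adjusted p = 0.0402, edgeR). Of 6 edgeR fits that left out a library, the one without p62FSP1KO 1 kept the call (adjusted p = 0.0258). In the other 5 the adjusted p was 0.0747 to 0.164, at log2 fold changes of -0.90 to -0.81. Smcr8, on the opposite strand, shares 4.74% of the Shmt1 exon bases and had a log2 fold change of -0.29 (adjusted p = 0.522, edgeR).

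Mthfd1, which interconverts folate one-carbon units in the cytosol (chromosome 12, 76255298 to 76319803, plus strand), had 38.1, 36.5 and 40.1 CPM in p62FSP1KO libraries 1, 2 and 3, against 38.3, 41.2 and 50.2 CPM in p62f/f libraries 1, 2 and 3. The groups overlapped, and p62f/f 3 stood above the other libraries. Its log2 fold change was -0.18 ± 0.17 (SE), with a 95% interval of -0.56 to 0.21 (adjusted p = 0.546, edgeR).

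Shmt2, the mitochondrial partner of Shmt1 (chromosome 10, 127517123 to 127522444, minus strand), had 46.0, 73.5 and 48.9 CPM in p62FSP1KO libraries 1, 2 and 3, against 34.7, 29.8 and 25.6 CPM in p62f/f libraries 1, 2 and 3. The groups did not overlap, with p62FSP1KO 2 far above the others. For Shmt2 the log2 fold change was 0.90 ± 0.23 (SE), with a 95% interval of 0.37 to 1.44, which missed the threshold (adjusted p = 0.0726, edgeR).

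Mthfd2, the mitochondrial methylenetetrahydrofolate dehydrogenase and cyclohydrolase gene (chromosome 6, 83305691 to 83325908, minus strand), had 87.2, 101 and 79.8 CPM in p62FSP1KO libraries 1, 2 and 3, against 60.8, 44.8 and 33.8 CPM in p62f/f libraries 1, 2 and 3. Here too the groups did not overlap, and the libraries kept the order they had for Psat1 in p62f/f. Mthfd2 also missed the threshold, at a log2 fold change of 0.94 ± 0.24 (SE; adjusted p = 0.0701, edgeR).

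Mthfd1l, whose enzyme releases formate from mitochondria (chromosome 10, 3973118 to 4167081, plus strand), had 16.4, 17.6 and 17.7 CPM in p62FSP1KO libraries 1, 2 and 3, against 12.1, 10.2 and 4.99 CPM in p62f/f libraries 1, 2 and 3. The p62FSP1KO libraries were nearly equal, and p62f/f 3 was far below the other 2 of its group. With all libraries the log2 fold change was 0.92 ± 0.33 (SE; adjusted p = 0.164, edgeR), and without p62f/f 3 it was 0.63 (adjusted p = 0.205, edgeR).

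Aldh1l2, which oxidises 10-formyltetrahydrofolate in mitochondria and yields NADPH (chromosome 10, 83487450 to 83534140, minus strand), had 25.8, 70.8 and 44.0 CPM in p62FSP1KO libraries 1, 2 and 3, against 27.0, 22.9 and 12 CPM in p62f/f libraries 1, 2 and 3. It was the one mitochondrial gene whose groups overlapped, because p62FSP1KO 1 lay below p62f/f 1. Aldh1l2 had a log2 fold change of 1.18 ± 0.42 (SE; adjusted p = 0.163, edgeR). An opposite-strand gene, D10Wsu102e, covers 14.1% of its exon bases and averaged 26.2 ± 2.28 CPM in p62FSP1KO and 25.4 ± 1.61 CPM in p62f/f libraries (SD, n = 3 each).

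Mthfd2l, a second mitochondrial dehydrogenase of the MTHFD2 type (chromosome 5, 90931117 to 91021368, plus strand), ran opposite to the rest of its arm. It had 1.13, 2.86 and 2.68 CPM in p62FSP1KO libraries 1, 2 and 3, against 4.44, 3.0 and 7.93 CPM in p62f/f libraries 1, 2 and 3. The gap between the groups was only that between p62FSP1KO 2 and p62f/f 2. These values rest on 15 to 116 counts a library, and its log2 fold change was -1.18 ± 0.49 (SE; adjusted p = 0.214, edgeR).

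**Figure D2:**
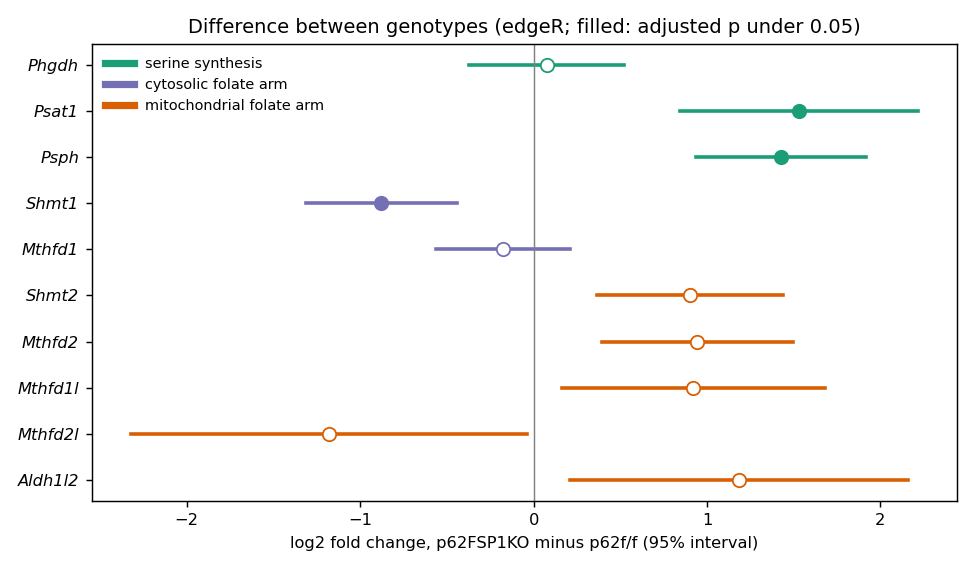
Log2 fold change of p62FSP1KO over p62f/f for the 10 genes, with 95% intervals from edgeR; filled points passed an adjusted p of 0.05. Psat1 and Psph are filled to the right of 0 and Shmt1 to the left, while 4 of 5 mitochondrial genes lie near 1 with open points.

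Compared per length, Phgdh had the highest level of the 10 in both groups, at 90.7 ± 16.1 CPM per kilobase of exon in p62FSP1KO and 86.0 ± 2.24 in p62f/f libraries (SD, n = 3 each). Psat1 stood at 33.4 ± 6.92 CPM per kilobase in p62FSP1KO and 11.6 ± 4.22 in p62f/f, at rank 2 in p62FSP1KO and rank 3 in p62f/f. Its neighbour in that order was Mthfd2, at 25.7 ± 3.15 CPM per kilobase in p62FSP1KO and 13.3 ± 3.89 in p62f/f, and in p62f/f these levels differed by less than their SDs. Shmt2 stood at 18 ± 4.86 CPM per kilobase in p62FSP1KO and 9.65 ± 1.48 in p62f/f, and Shmt1 at 4.60 ± 0.76 and 8.44 ± 0.33 CPM per kilobase in these groups. In p62f/f libraries Shmt2, Mthfd1 (9.73 ± 1.40 CPM per kilobase) and Shmt1 were close to one another. Mthfd2l had the lowest level of the 10 in both groups. Exon lengths are the union of all annotated exons, which differ in how much of each a prostate transcript uses, so these orders are approximate.

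The mitochondrial arm as a whole, summed over its 5 genes per length, was at 47.1, 66.5 and 48.9 CPM per kilobase in p62FSP1KO libraries 1, 2 and 3, against 35.6, 28.2 and 21.8 in p62f/f libraries 1, 2 and 3. The cytosolic sum of 2 genes was at 14.1, 12.4 and 13.2 CPM per kilobase in p62FSP1KO libraries 1, 2 and 3, against 17.4, 17.5 and 19.6 in p62f/f libraries 1, 2 and 3. Both sums separated the groups, in opposite directions. The mitochondrial genes thus made up 77.0%, 84.3% and 78.7% of the summed level of both arms in p62FSP1KO libraries 1, 2 and 3, against 67.1%, 61.7% and 52.7% in p62f/f libraries 1, 2 and 3. The mean shares were 80.0% ± 3.84 in p62FSP1KO and 60.5% ± 7.29 in p62f/f (SD, n = 3 each), and the ratio of the arms differed by 1.40 on the log2 scale. No p is given for these sums, since they are scores over chosen genes. Leaving out any 1 library gave a difference of 1.16 to 1.60, and leaving out p62f/f 3 and p62FSP1KO 1 together gave 1.30.

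The ratio of the isozymes within each library separated the groups too. Shmt2 counts divided by Shmt1 counts were 2.16, 4.58 and 3.0 in p62FSP1KO libraries 1, 2 and 3, against 1.01, 0.932 and 0.796 in p62f/f libraries 1, 2 and 3. The ratio was 3.41-fold higher in p62FSP1KO (log2 difference 1.77; SD 0.54 in p62FSP1KO and 0.18 in p62f/f), with no overlap. Mthfd2 counts divided by Mthfd1 counts were 2.29, 2.78 and 1.99 in p62FSP1KO libraries 1, 2 and 3, against 1.59, 1.09 and 0.672 in p62f/f libraries 1, 2 and 3. That ratio was 2.22-fold higher in p62FSP1KO (log2 difference 1.15; SD 0.24 in p62FSP1KO and 0.62 in p62f/f), again with no overlap. For each pair the exact two-sided permutation p was 0.1, the smallest this design gives, and 0.1 adjusted over the 3 ratios.

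**Figure D3:**
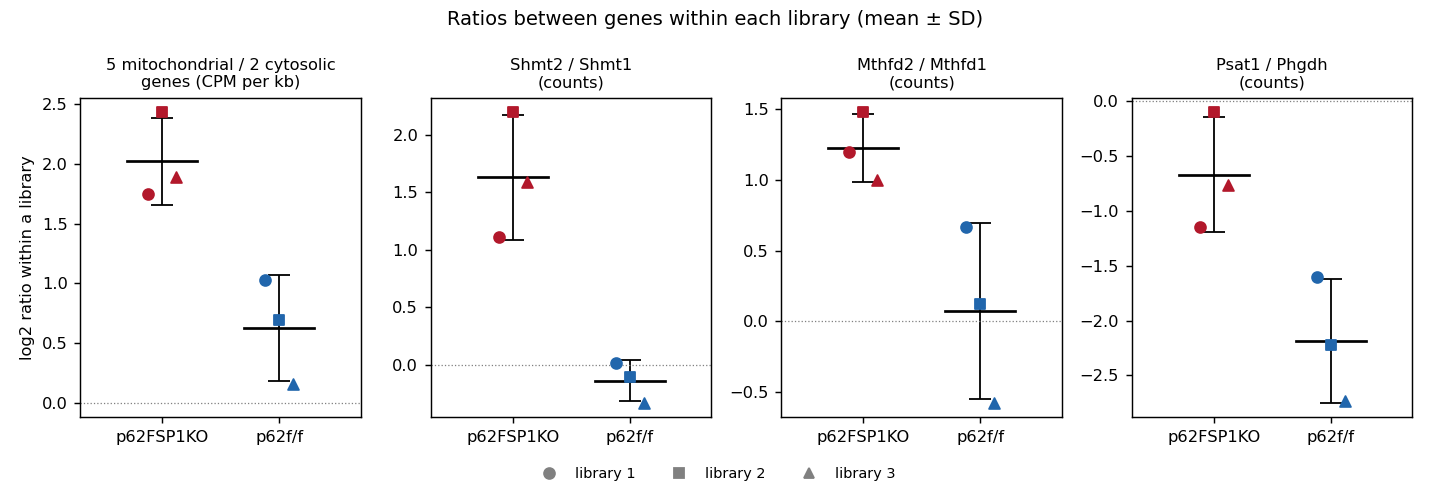
Log2 ratios within each library for the 5 mitochondrial over the 2 cytosolic genes (CPM per kilobase) and for 3 gene pairs (counts), p62FSP1KO left of p62f/f; points are libraries, bars mean ± SD (n = 3 each). All 3 p62FSP1KO libraries lie above all 3 p62f/f libraries in every panel, and the p62f/f libraries differ least for Shmt2 over Shmt1.

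The libraries of a group also differed from one another in a shared way. Among p62f/f libraries the order 1 over 2 over 3 held for Psat1, Psph, Shmt2, Mthfd2, Mthfd1l and Aldh1l2, 6 of the 10 genes, and for 17.5% of all tested genes. Library 3, the one rich in adipocyte and ventral-type transcripts, was the lowest for these 6 genes. Their fold changes without it were smaller for all 6, for example 1.30 on the log2 scale for Psat1 and 0.76 for Mthfd2. Among p62FSP1KO libraries number 2 was highest for Psat1, Shmt2, Mthfd2, Aldh1l2 and Mthfd2l, against 27.2% of all tested genes. Psph, Phgdh and Shmt1 did not follow this, being highest in p62FSP1KO 1. Atf4 was highest there too, at 542 CPM, against 388 and 368 CPM in p62FSP1KO 2 and 3. Mthfd1 and Mthfd1l were highest in p62FSP1KO 3.

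**Figure D4:**
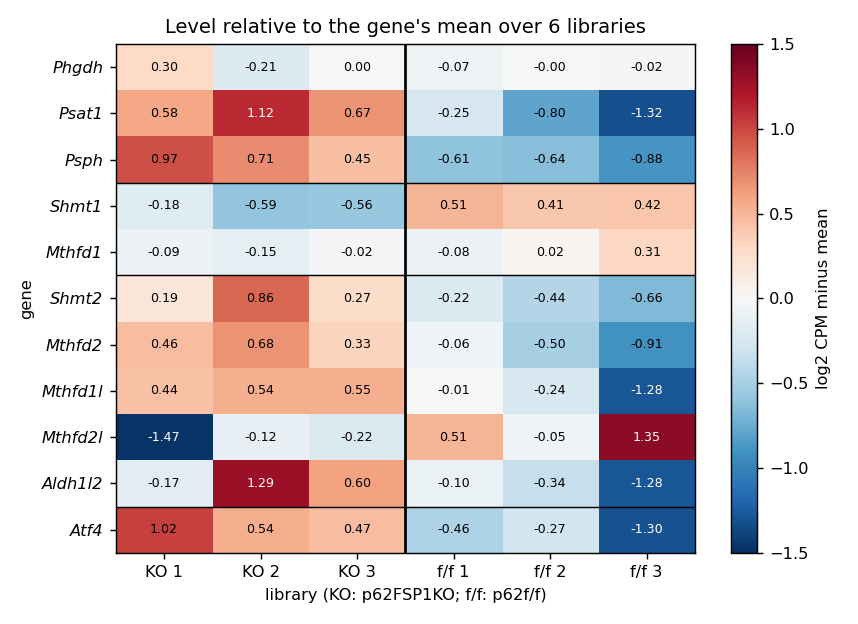
Log2 CPM of the 10 genes and Atf4 minus each gene's mean over the 6 libraries, with p62FSP1KO libraries left of the line and p62f/f libraries right of it. Psat1, Psph, Shmt2, Mthfd2 and Mthfd1l are above 0 in every p62FSP1KO library and below 0 in every p62f/f library, and Shmt1 shows the reverse.

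Across the 6 libraries, the genes most like each enzyme were found by Pearson correlation of log2 CPM among 11278 genes. These points share the genotype split, so the values are descriptions of pattern only. For Psat1 the first was Upb1 (0.99), and the second was Mthfd2 (0.99), another of the 10. Psph was closest to Rras2, Chst7 and B3galt6, and Shmt1 to Pigr, Mug1 and Scgb2b7, each at 0.99. Shmt2 was closest to Pdia2, Trps1 and Gulp1. With only 6 points a high value is common: 86 genes reached 0.95 with Psat1 and 317 with Mthfd1l. Atf4 correlated with the serine synthesis genes Psph, Psat1 and Phgdh at 0.95, 0.90 and 0.36, and with the cytosolic Shmt1 and Mthfd1 at -0.77 and -0.80. With the mitochondrial Mthfd1l, Mthfd2, Shmt2, Aldh1l2 and Mthfd2l it correlated at 0.92, 0.91, 0.80, 0.71 and -0.94.

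Regulators and companions linked to the serine genes were examined as a list of 9, of which 2 rose, none fell and 7 did not pass, where 0.414% of all tested genes rose and 4.66% fell. This list too was chosen with earlier results of these data known. The list's median log2 fold change was 1.31, against 0.03 over all tested genes, with 6 of the 9 positive and 3 negative. The groups did not overlap for 4 of the 9 genes in the higher direction and 1 in the lower. Of all tested genes, 14.1% and 18.3% separated in these directions. Atf5, an ATF4-related factor, averaged 74.9 ± 13.4 CPM in p62FSP1KO and 25 ± 8.46 CPM in p62f/f libraries (SD, n = 3 each), with an adjusted p of 0.0206 (edgeR). Trib3, a stress-induced pseudokinase gene, averaged 21.1 ± 7.65 CPM in p62FSP1KO and 5.95 ± 1.69 CPM in p62f/f libraries (adjusted p = 0.0285, edgeR). Atf4 had 542, 388 and 368 CPM in p62FSP1KO libraries, against 194, 221 and 108 CPM in p62f/f libraries, and it missed the threshold (adjusted p = 0.0585, edgeR). Asns, asparagine synthetase, averaged 433 ± 82.2 CPM in p62FSP1KO and 171 ± 67.4 CPM in p62f/f libraries (adjusted p = 0.0727, edgeR).

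No other folate gene tested passed the threshold, which 5.07% of all tested genes did, so a count of 0 among so few genes says little about them. In folate uptake, storage and reduction none of 9 genes passed, with a median log2 fold change of -0.19. Slc46a1, a proton-coupled folate transporter, had a log2 fold change of -1.19 and Slc25a32, the mitochondrial folate carrier, of -0.38 (adjusted p = 0.115 and 0.397, edgeR). Of 13 other folate one-carbon enzymes 11 were tested and none passed, with 9 of the 11 log2 fold changes negative and a median of -0.34. Atic, an enzyme of purine synthesis, was at 0.60 (adjusted p = 0.123, edgeR). None of the 3 tested glycine cleavage genes passed (median 0.11), Amt being at -0.29 and Gcsh at 0.26. Gldc, the decarboxylase of that system, did not pass the count filter.

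Genes that use or supply serine and its carbon gave 3 calls, all lower, as were 641 of the 698 calls over all genes. In the methionine cycle and transsulfuration list 2 of 10 tested genes fell, against 4.66% of all tested genes. Mat2a, which makes S-adenosylmethionine, averaged 219 ± 31.9 CPM in p62FSP1KO and 3573 ± 2022 CPM in p62f/f libraries (SD, n = 3 each; adjusted p = 0.00443, edgeR). Ahcyl2, of the S-adenosylhomocysteine hydrolase family, averaged 151 ± 7.85 CPM in p62FSP1KO and 369 ± 91.4 CPM in p62f/f libraries (adjusted p = 0.0190, edgeR). Of 7 tested genes of serine use 1 fell: Sptlc2, a subunit of the serine palmitoyltransferase that starts sphingolipid synthesis, averaged 38.3 ± 2.46 CPM in p62FSP1KO and 89.3 ± 18.7 CPM in p62f/f libraries (adjusted p = 0.0121, edgeR). All 3 were highest in p62f/f 3, and the part of that library's cell or lobe content in them was not tested. Among 9 tested serine and glycine transporters none passed, the neutral amino acid transporter gene Slc38a2 coming nearest at 0.66 on the log2 scale (adjusted p = 0.0903, edgeR). None of 12 purine and thymidylate synthesis genes passed, with a median of -0.17. In all, 70 of the 79 genes on these 8 lists were tested, and 2 rose and 3 fell. The share that fell was near that of all tested genes, 4.66%.

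Cell-type markers were read beside the enzymes. All 6 smooth muscle genes had positive log2 fold changes, with a median of 1.00 and none past the threshold. Their sum was 2364, 3633 and 3048 CPM in p62FSP1KO libraries 1, 2 and 3. In p62f/f libraries 1, 2 and 3 it was 1682, 2443 and 1034 CPM. This sum was highest in p62FSP1KO 2 and lowest in p62f/f 3, as Psat1 and Shmt2 were. Unlike those genes, it was higher in p62f/f 2 than in p62f/f 1 and in p62FSP1KO 1. The 4 basal genes summed to 145 to 253 CPM in p62FSP1KO and 95.5 to 140 CPM in p62f/f libraries, and the 8 luminal genes to 3898 to 4305 CPM in p62FSP1KO and 2679 to 3745 CPM in p62f/f libraries. The 7 fibroblast genes summed to 490 to 709 CPM in p62FSP1KO and 432 to 715 CPM in p62f/f libraries, and the sums of the groups overlapped. By gene, 4 of the 7 log2 fold changes were positive and 3 negative. For 3 of the 7 genes the groups did not overlap, in the higher direction, as for 14.1% of all tested genes, and for 0 in the lower. Lum, at 1.06 on the log2 scale, and Thy1, at 1.24, were among these (adjusted p = 0.132 and 0.177, edgeR). Endothelial genes (5) summed to 56.0 to 68.5 CPM in p62FSP1KO and 39.5 to 47.2 CPM in p62f/f libraries. Leukocyte genes (6) summed to 43.4 to 74.6 CPM in p62FSP1KO and 35.6 to 83.4 CPM in p62f/f libraries, and skeletal muscle genes (4) to 37.1 to 87.2 CPM in p62FSP1KO and 27.3 to 62.4 CPM in p62f/f libraries. Proliferation genes (6) summed to 54.2 to 75.8 CPM in p62FSP1KO and 68.2 to 76.8 CPM in p62f/f libraries. Among tested markers the adipocyte genes Plin1, Lep and Cidec were at 0 in some p62FSP1KO libraries, and no other was at 0 in any library. Of the secretory genes, the 3 ventral-type genes and 1 of the 4 of other lobes fell, and no other marker passed the test. The part of cell mixture in the enzyme levels was not tested. S100a4, the gene after which the Cre is named, averaged 9.62 ± 5.66 CPM in p62FSP1KO and 6.29 ± 1.96 CPM in p62f/f libraries (SD, n = 3 each).

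Calls in the mitochondrial arm differed between tests and with the libraries used. Plain limma-voom called the same 3 genes as edgeR, with adjusted p = 0.0845 for Shmt2 and 0.0649 for Mthfd2. DESeq2 called 5 of the 10 genes, adding Shmt2 (adjusted p = 0.0122) and Mthfd2 (adjusted p = 0.00779) to the 3 above, where it called 10.5% of all genes with an adjusted p. Limma-voom with sample quality weights called 6, with Aldh1l2 as the sixth (adjusted p = 0.0384), among 10.1% of all genes. Without p62f/f 3 and p62FSP1KO 1 together edgeR called 5, Psat1, Psph, Shmt1, Shmt2 and Aldh1l2, among 8.76% of all genes. Adding the level of the 3 ventral-type genes as a covariate left none of the 10 called by edgeR, on the log2 or the linear scale, the linear one chosen after seeing the data. The log2 fold change of Psph was then 2.35 with the log2 covariate and 1.21 with the linear one, that of Psat1 0.77 and 0.91, and that of Shmt1 -0.077 and -0.90. The log2 covariate followed the genotype at a Pearson correlation of -0.971 and the linear one at -0.79, so the covariate and the genotype can hardly be told apart in 6 libraries.

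**Figure D5:**
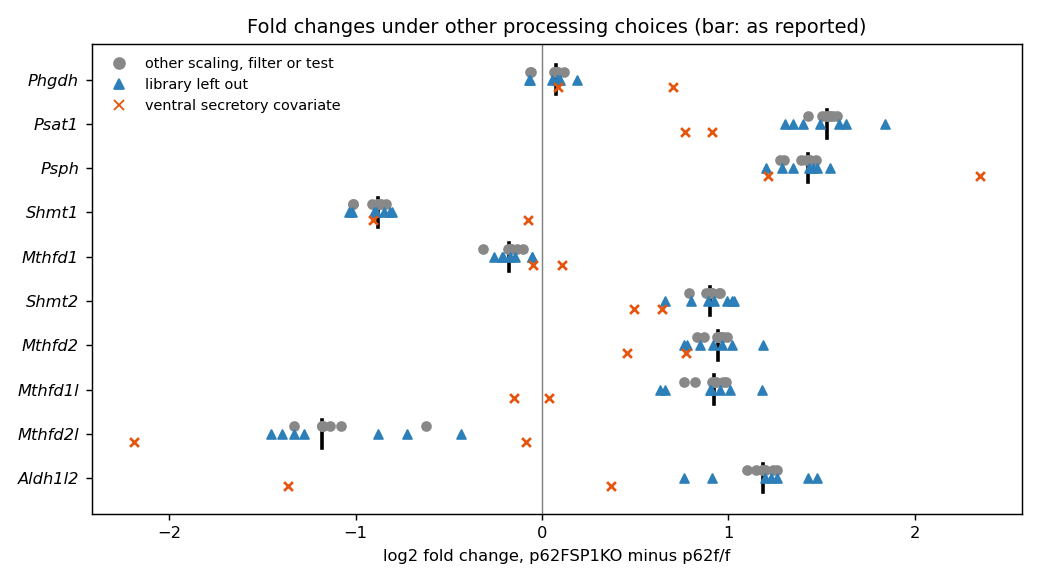
Log2 fold changes of the 10 genes as reported (bars) and under 17 other choices, grouped as other scaling, filter or test, libraries left out, and the ventral secretory level as a covariate. Psat1, Psph, Shmt2 and Mthfd2 stay to the right of 0 and Shmt1 to the left throughout, while the covariate moves Aldh1l2 to -1.36 in one fit.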

How the data were processed

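Single-end reads of polyadenylated RNA from whole prostates came from strand-preserving libraries, per the labels' protocols. STAR, DESeq2 and mm10 are named in the submitters' processing notes, with no version or role. How reads were counted, with which annotation and strand setting, is not given in the sources used here. The deposited table, made by the authors, holds raw counts (whole reads per gene, 24421 symbols, 6 libraries). Columns were matched to samples by title (0 left over) and groups to the genotype label. Replicate numbers pair nothing. No library was a duplicate of another (chi-square per gene of 48.3 to 888 over all pairs). Reads carry no molecular identifiers, so copies of the same molecule cannot be told from separate molecules, and depth alone does not set the counting error.

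edgeR 4.0.16 in R 4.3.3 tested the counts: a minimum count of 10 in its expression filter, TMM factors, the quasi-likelihood F test without covariates, and Benjamini-Hochberg adjustment over 13762 genes at 0.05. SE is the log2 fold change over the root of its F statistic, and intervals are at 95%. The test was checked on simulated counts, in which most of the 2-fold changes did not pass. Gene ratios had exact permutation tests (scipy 1.17.1). GENCODE M21 (GRCm38, which is mm10) gave loci and exon lengths.

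The 10 genes, the 20 other lists and the tests were chosen with earlier results of these data known. Named besides the 10 are Sqstm1, Atf4 and S100a4, list members past the threshold with up to 2 more of smallest p, and the 3 genes most alike in pattern, not all printed. Gldc, Cct6a, D10Wsu102e, Pbsn and the adipocyte genes named were added after their values were seen. Alternatives were other scaling (library size alone, upper quartile, size factors), other count filters, DESeq2 1.42.0, limma 3.58.1 (voom), left-out libraries and a covariate. The median log2 fold change of all genes was 0.03 with TMM and -0.10 with library size alone.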

Additional observations from a re-analysis of the deposited data

How the results depend on the processing

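Of the 10 genes 3 passed. The number was 1 at an adjusted p threshold of 0.01 and 5 at 0.10, 5 in DESeq2, 6 in limma-voom with quality weights, 5 without p62f/f 3 and p62FSP1KO 1 together, and 0 to 2 without 1 library, with 0 without p62FSP1KO 2, 1 without p62f/f 2 or p62FSP1KO 3 and 2 without any of the other 3. With a ventral secretory covariate it was 0 in edgeR, both on the log2 scale and on the linear scale (the linear one was added after seeing the data), with log2 fold changes of 2.35 and 1.21 for Psph and -0.077 and -0.90 for Shmt1. The log2 covariate correlated with genotype at -0.971 over the libraries, and with it 0 of all genes passed while 2155 had an unadjusted p under 0.05. The linear one gave 170 genes. Over all genes 698 passed, 91.8% of them lower, and 1582 (73.5% lower) in DESeq2, 1389 (76.5% lower) with quality weights, 1229 (70.1% lower) without the 2 libraries, and 255 (without p62FSP1KO 2) to 551 (without p62f/f 3) without 1 library. Psat1 kept its call in 11 of 17 alternatives, Psph in 14 and Shmt1 in 10, and Shmt2, Mthfd2 and Aldh1l2 gained one in 3, 2 and 2. Phgdh changed sign to -0.063 with library size alone, -0.057 with quality weights and -0.065 without the 2 libraries, and ranged from -0.067 to 0.19 without 1 library. Mthfd1 changed sign to 0.11 with the linear covariate, and Mthfd1l to -0.15 and Aldh1l2 to -1.36 with the log2 covariate, and the cause was not tested. The arm ratio and the 3 gene ratios moved by less than 1 SD under every alternative run for them. Those were other ways to form the ratio and left-out libraries, and the ventral secretory covariate was not among them. With the log2 covariate the edgeR log2 fold changes were 0.77 for Psat1 and 0.70 for Phgdh, and 0.49 for Shmt2. With the linear one they were 0.91, 0.084 and 0.64. The low-count gene Mthfd2l is the one most limited by depth. No paired analysis was possible because the labels give the groups no shared replicate numbers.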
